A study of Mus musculus with 8 samples.

Results

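The 10 genes described here belong to the YAP-TEAD branch of Hippo signalling or mark the fetal-like state that colonic epithelium can enter during repair. They were taken by symbol from a table of 45777 genes, and all 10 had enough counts to be tested. Yap1 and Wwtr1 (TAZ) encode the coactivators and Tead1 a DNA-binding partner. Lats2 and Amotl2 encode inhibitors that are themselves induced by the pathway, Ccn1, Ccn2 and Ankrd1 are its usual target genes, and Clu and Ly6a mark the fetal-like state. RNA was sequenced from colonic organoids, epithelial cultures grown from crypts in Matrigel, of male mice aged 9 weeks, for which the labels name the strain C57BL/6J. Reg3aΔIEC organoids (KO, 4 libraries, replicates 5 to 8) came from mice in which Cre driven by the Villin promoter, active in intestinal epithelium, removes exons 2 to 4 of floxed Reg3a. Reg3afl/fl organoids (WT, 4 libraries, replicates 13 to 16) carry the floxed alleles, and no Cre is named for them. Both were harvested on day 3 after passage, untreated, at no more than 15 passages, in a study of IL-22, Paneth cell metaplasia and REG3A in wound healing.

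The labels give 2 accounts of replication, 1 mouse per genotype in 4 wells and 3 mice per genotype in triplicate. The scatter behind each p-value is that among the 4 libraries within each genotype, pooled over both and moderated by the scatter of other genes. That scatter may be technical, and genotype cannot be told apart from mouse or organoid line. Library totals ran from 37182098 to 49256171 counts. Reg3a itself had 0 counts in all 8 libraries and gives no check of the labels. The epithelial markers Epcam (2052 CPM on average, counts scaled to library size), Krt8 and Cdh1 were abundant. The fibroblast genes Col1a2, Dcn, Lum and Thy1, the endothelial gene Emcn and the T cell gene Cd3e were at 0 in every library. Other genes of the same marker lists were detected, among them Cd68 at 34.7 CPM and Pdgfrb at 5.72 CPM on average. Itgam, Acta2, Myh11, Col1a1 and Pdgfra averaged 0.777 CPM or less. KO replicate 6 stood apart in the sum of 5 endothelial markers, 4 of them detected, with 81 counts (1.67 CPM) against 0 to 4 in the other 7 libraries, and values without it are given for the genes that passed the test and for Clu.

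In Hippo signalling a kinase cascade ending in LATS1 and LATS2 phosphorylates YAP and TAZ and keeps them out of the nucleus. Unphosphorylated YAP and TAZ enter the nucleus and bind TEAD factors, which recognise the letters GGAATG, and so switch on genes for secreted matricellular proteins and for the pathway's own inhibitors. In injured intestine YAP is known for a transient return to a fetal-like programme, in which Ly6a (Sca-1) and Clu are raised and markers of the homeostatic crypt fall. This control acts largely on protein location, so transcript levels of Yap1 and Wwtr1 do not report it.

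To show what a TEAD recognition element looks like next to these genes, the RefSeq windows from 250 bases before to 50 bases after each annotated start (GRCm38.p6) were searched for GGAATG on both strands (read as CATTCC on the other). Of the 10 genes 6 had a window, 8 windows in all, and each of the 6 held a match in at least 1. Over all 32851 windows of mouse genes 14.7% held a match, and over all 27025 genes 16.6% held one in any window. The 30 bases around each match follow, 5′ to 3′ on the gene's strand, with the match in capitals.
Wwtr1: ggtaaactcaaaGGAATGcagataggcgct
Ccn1: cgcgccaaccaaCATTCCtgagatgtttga
Yap1: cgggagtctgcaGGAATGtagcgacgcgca
Amotl2: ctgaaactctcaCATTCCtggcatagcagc
Lats2: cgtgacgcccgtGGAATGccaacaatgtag
Ankrd1, upstream match: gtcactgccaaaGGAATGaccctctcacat
Ankrd1, downstream match: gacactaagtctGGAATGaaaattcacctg
Coordinates in brackets are those of the 30 bases printed, and distances are those of the first base of the match. The Ccn1 match (chr3:145650071-145650100, minus strand) began 103 bases before the start, the Yap1 match (chr9:8004720-8004749, minus strand) 141 bases before and the Amotl2 match (chr9:102717727-102717756, plus strand) 65 bases before. The Wwtr1 match (chr3:57576029-57576058, minus strand) lay 136 or 170 bases before, counted from its 2 annotated starts. Ankrd1 held matches 210 bases before (chr19:36120037-36120066, minus strand) and 123 bases before its start (chr19:36119950-36119979, minus strand). The Lats2 match (chr14:57746102-57746131, minus strand) began at base 5 after the start, and a second Lats2 window held none. In GENCODE M21 the 30 bases around the Wwtr1, Ccn1 and Yap1 matches lie outside any exon. Those around the Amotl2, Ankrd1 and Lats2 matches overlap an annotated untranslated exon of the same gene and, for Lats2, also of Gm49361. The AP-1 letters TGANTCA, present in 7.81% of all windows, were in none of the 8. A match describes the letters and not a bound site.

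The Ccn1 window is printed further, as the gene with the largest difference between genotypes. Its 250 bases before the start (chr3:145649986-145650235, minus strand, outside GENCODE exons) carry the same match in capitals.
Ccn1 upstream: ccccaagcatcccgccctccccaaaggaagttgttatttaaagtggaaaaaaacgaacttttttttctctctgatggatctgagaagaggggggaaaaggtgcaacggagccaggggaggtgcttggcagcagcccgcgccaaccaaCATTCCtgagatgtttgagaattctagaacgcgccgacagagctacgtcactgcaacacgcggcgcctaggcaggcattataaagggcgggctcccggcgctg

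Per transcript length, the 10 genes spanned more than 3 orders of magnitude. In the authors' TPM (counts scaled for transcript length and library size) Ly6a led with a mean of 2239 over the 8 libraries (2083 to 2489), a level 17.2 times that of the next gene. Clu (111 to 154 TPM) and Ccn2 (113 to 129 TPM) followed with overlapping ranges, so their order was not resolved. Yap1 stood at 63.1 TPM (59.6 to 65.2), 2.93 times the 21.5 TPM of Wwtr1 (19.5 to 25.9), without overlap. Ccn1 (7.51 to 14.4 TPM), Amotl2 (9.63 to 12.3 TPM) and Tead1 (9.07 to 11.98 TPM) overlapped one another. Lats2 (3.92 to 5.96 TPM) lay below them, and Ankrd1, the cardiac ankyrin repeat gene much used as a YAP reporter in other cells, was last at 0.487 to 1.41 TPM. The matricellular pair was thus unequal, with Ccn2 above Ccn1 in every library, by 8.59 to 10.02 times in WT and 10.5 to 15.1 times in KO. That ratio was chosen after its values were seen and is given without a test.

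**Figure D1:**
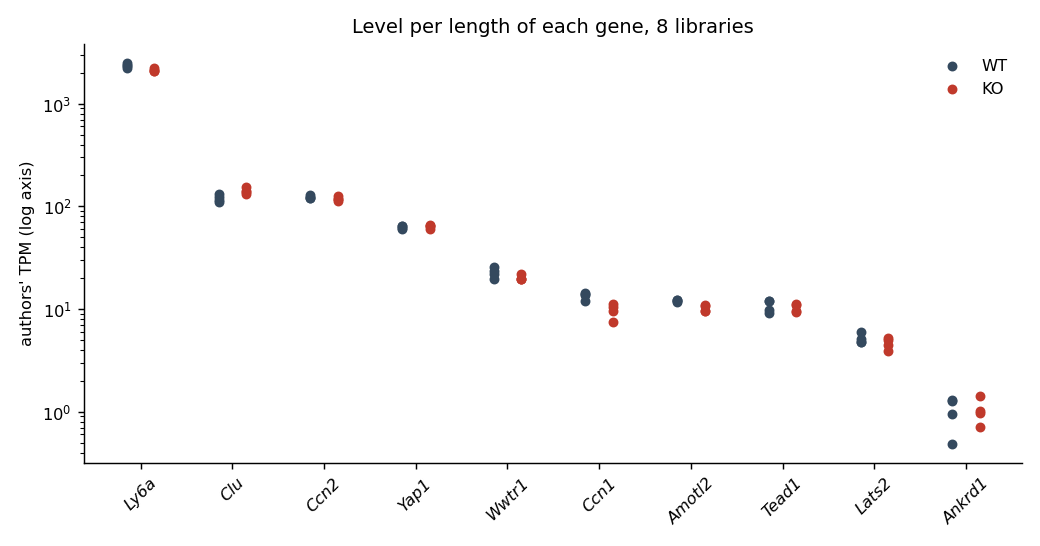
Level of each gene in the authors' TPM on a log axis, ordered by the mean over 8 libraries, with WT libraries in dark points and KO libraries in red. Ly6a sits at 2083 TPM or more in all libraries and Ankrd1 between 0.487 and 1.41 TPM.

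Of the 10 genes 3 were lower in KO, Ccn1, Amotl2 and Ly6a, none was higher and 7 did not pass the test (edgeR quasi-likelihood test across 14945 genes, Benjamini-Hochberg adjusted p under 0.05). Over all genes tested, 8.26% were lower and 7.63% higher. The fold changes of 9 genes lay below 0 and that of Clu above 0, with a median log2 fold change of -0.13 beside -0.0012 over all genes tested. The same 3 genes were the ones whose KO libraries all lay below all WT libraries, a pattern shown by 10.3% of all genes tested, while 9.91% had all KO libraries above WT. All these differences were smaller than 1.5-fold, and in bulk RNA fewer cells of a type and less RNA per cell cannot be told apart. Counts of the 13 mitochondrially encoded protein genes moved with genotype too, at 1.30% to 1.62% of counts in KO and 0.923% to 1.13% in WT, and their part in these differences was not tested.

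Ccn1 (NCBI Gene ID 16007, chr3:145646971-145649985, GRCm38), formerly Cyr61, encodes a secreted integrin-binding protein of the matrix. Its level in TMM-scaled CPM, which corrects for depth and composition, was 14.6, 15.1, 13.9 and 12.6 in WT replicates 13 to 16 and 11.4, 9.76, 10.4 and 7.55 in KO replicates 5 to 8. Every KO library was below every WT library, and KO replicate 8 was the lowest. KO averaged 9.79 ± 1.64 CPM and WT 14.1 ± 1.10 CPM (SD, n = 4). Ccn1 fell by 30.6%, a log2 fold change of -0.53 (SE 0.11, adjusted p = 0.00493 with edgeR). Without KO replicate 8 the log2 fold change was -0.42 (edgeR adjusted p = 0.0103) and without KO replicate 6 it was -0.52 (0.0149).

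Ccn2 (chr10:24595442-24598683), formerly Ctgf, is the paralog of Ccn1 and the pathway's most used readout gene. It stood at 159, 154, 143 and 149 CPM in WT replicates 13 to 16 and 142, 153, 141 and 135 CPM in KO replicates 5 to 8. The ranges overlapped, with KO replicate 6 above 2 of the WT libraries. The log2 fold change of -0.08 (SE 0.05, adjusted p = 0.281 with edgeR) had a 95% interval from -0.19 to 0.02. Ankrd1 (chr19:36111965-36119844) had 17 to 59 counts per library and could not be resolved at this depth. It ran from 0.459 to 1.19 CPM in WT and from 0.640 to 1.25 CPM in KO, and the 95% interval of its log2 fold change, -0.66 to 0.58, was the widest of the 10.

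Amotl2 (Gene ID 56332, chr9:102717091-102733418) encodes an angiomotin-family scaffold that holds YAP at cell junctions and is induced by YAP. The WT libraries were close together at 26.7, 26.2, 25.8 and 26.3 CPM (replicates 13 to 16), and the KO libraries stood at 23.1, 23.0, 20.1 and 20.1 CPM (replicates 5 to 8). All KO libraries lay below WT, as a pair near 23 and a pair near 20 CPM. Amotl2 fell by 17.9%, from a WT mean of 26.3 ± 0.404 CPM to a KO mean of 21.6 ± 1.71 CPM (SD, n = 4, with an edgeR log2 fold change of -0.28, SE 0.06, adjusted p = 0.00575). Without KO replicate 6 the log2 fold change was -0.32 (edgeR adjusted p = 0.00616). Lats2 (chr14:57689662-57746212), the kinase that phosphorylates YAP and is also induced by it, was at 11.5 to 14.0 CPM in WT and 9.60 to 12.3 CPM in KO. Its groups overlapped, and the log2 fold change of -0.19 ± 0.09 (SE) did not pass (edgeR adjusted p = 0.182, 95% interval -0.38 to 0.0027).

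The coactivators and Tead1 did not pass the test. Yap1 (chr9:7931999-8004638) varied by a coefficient of 2.26% within WT and 2.88% within KO, at 135, 130, 129 and 128 CPM in WT replicates 13 to 16 and 132, 123, 127 and 128 CPM in KO replicates 5 to 8. The genotypes overlapped, and the 95% interval of the log2 fold change, -0.12 to 0.05, included 0. Wwtr1 (chr3:57455644-57575910) stood at 63.0, 48.8, 55.6 and 54.3 CPM in WT and 52.0, 47.3, 46.6 and 45.9 CPM in KO. WT replicate 14 lay within the KO range and the other 3 WT libraries above it. The log2 fold change of Wwtr1 was -0.21 ± 0.07 (SE, edgeR adjusted p = 0.0600), or -0.27 without WT replicate 14 (edgeR adjusted p = 0.0123). Tead1 (chr7:112679356-112906784) spread widely in both genotypes, 46.4 to 60.4 CPM in WT and 45.6 to 55.6 CPM in KO (edgeR log2 fold change -0.09, SE 0.09, adjusted p = 0.563).

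The fetal-like pair had fold changes of opposite sign. Ly6a (Gene ID 110454, chr15:74994877-74998031) encodes the GPI-anchored surface protein Sca-1. It was at 1141, 1240, 1134 and 1109 CPM in WT replicates 13 to 16 and 1006, 1038, 1049 and 992 CPM in KO replicates 5 to 8. All KO libraries were below all WT libraries, with a gap smaller than the range within WT. Ly6a fell by 11.7%, from 1156 ± 57.3 to 1021 ± 26.7 CPM (SD, n = 4, with an edgeR log2 fold change of -0.18, SE 0.04, adjusted p = 0.00860), and its log2 fold change was -0.19 without KO replicate 6 (edgeR adjusted p = 0.0199). Ly6a has similar copies in its gene family, so its share of reads is uncertain. Clu (Gene ID 12759, chr14:65968483-65981548) encodes clusterin, a secreted chaperone that marks revival stem cells. It stood at 113, 123, 105 and 104 CPM in WT and 125, 142, 125 and 118 CPM in KO. WT replicate 14 exceeded KO replicate 8, and KO replicate 6 was the highest of all. The log2 fold change of 0.20 ± 0.06 (SE) lay just outside the threshold (edgeR adjusted p = 0.0517). It was 0.25 without WT replicate 14 (edgeR adjusted p = 0.0138) and 0.14 without KO replicate 6 (edgeR adjusted p = 0.156). With all 8 libraries it passed under 4 of the other settings, the DESeq2 Wald test among them (adjusted p = 0.0220).

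**Figure D2:**
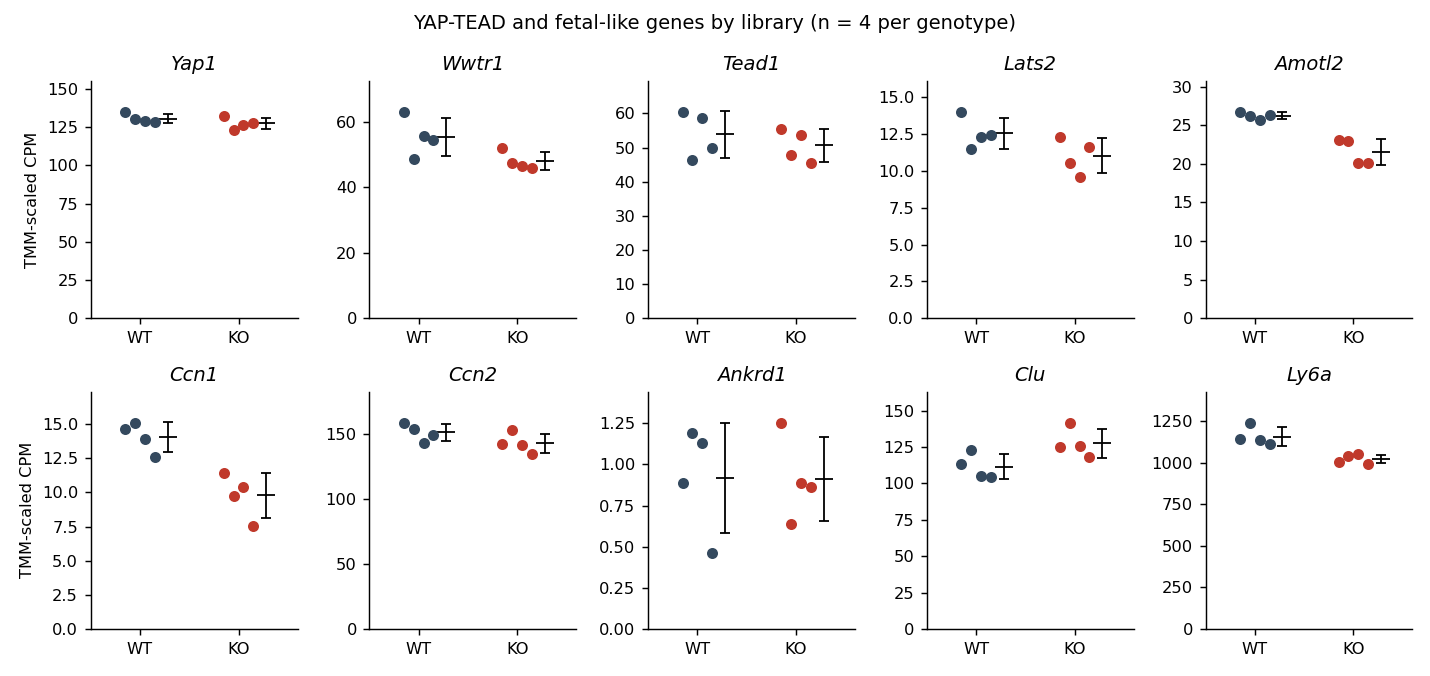
TMM-scaled CPM of the 10 genes in each library, with WT in dark points, KO in red, and the mean ± SD (n = 4) as a bar beside each group; every axis starts at 0. The groups are separate for Amotl2 (KO up to 23.1, WT from 25.8), Ccn1 (KO up to 11.4, WT from 12.6) and Ly6a (KO up to 1049, WT from 1109).

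**Figure D3:**
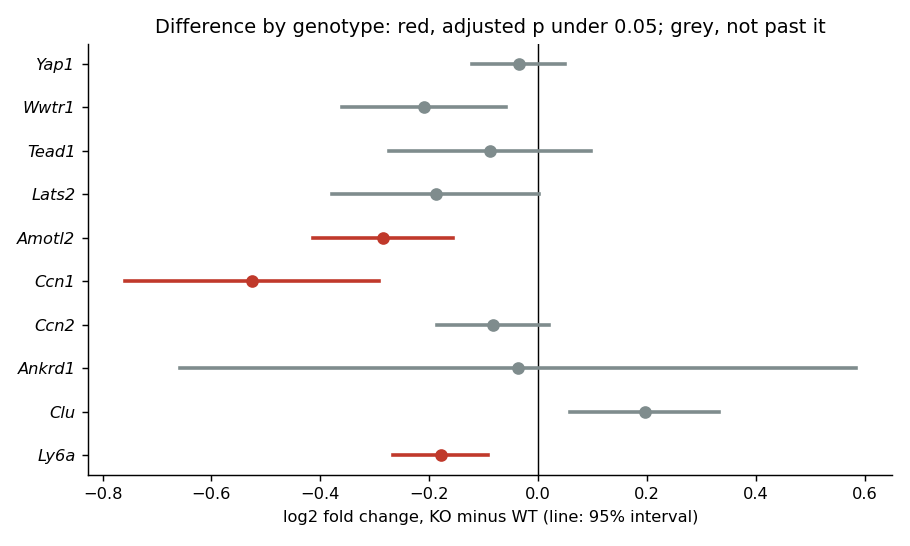
Log2 fold change of KO against WT for the 10 genes with its 95% interval, in red where the edgeR adjusted p was under 0.05. Ccn1 lies farthest from 0 at -0.53, and the interval of Ankrd1 (-0.66 to 0.58) is the widest.

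Other genes of the pathway were read from lists beside the 10. All lists below were chosen with earlier results of these data known. In the list of coactivators, TEAD and VGLL factors, 8 of 10 genes were tested, 2 were lower, none was higher, and Vgll1 and Vgll2 were at 0. The share called in either direction over all genes was 15.9%. Tead2, a TEAD paralog prominent in early development, fell from 19.1 ± 1.87 to 12.1 ± 0.651 CPM (SD, n = 4, with an edgeR log2 fold change of -0.66, SE 0.08, adjusted p = 9.29e-05). That estimate lay below those of the 10 genes, a difference that was not tested. Vgll4, which competes with YAP for TEAD, fell from 85.4 ± 3.26 to 72.5 ± 1.13 CPM (-0.24 ± 0.04, edgeR adjusted p = 0.00216). Per length the 4 TEAD genes were of like level in the authors' TPM, with Tead4 at 16.7, Tead2 at 14.5, Tead3 at 14.3 and Tead1 at 10.5 on average, and neither Tead3 (-0.07) nor Tead4 (-0.15) passed.

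Of 25 upstream Hippo genes 23 were tested, 3 were lower and 1 was higher, and 19 did not pass, at a median log2 fold change of 0.0094. The 17.4% called was near the share over all genes, and the 4 calls became 2 without KO replicate 5, 7 or 8 or WT replicate 13. Of the angiomotin family, Amot fell by 0.31 on the log2 scale (edgeR adjusted p = 0.00369) beside Amotl2, and Amotl1 was at 0.22 (edgeR adjusted p = 0.0849). Wwc2, a KIBRA paralog, fell by 0.25 (edgeR adjusted p = 0.0413) and Taok3, an upstream kinase gene, rose by 0.14 (edgeR adjusted p = 0.0385), calls that ended without any of 6 and any of 7 of the 8 libraries. The core kinase genes Stk3, Stk4 and Lats1, their partner Sav1 and the tumour suppressor Nf2 had log2 fold changes of 0.09, 0.14, 0.04, 0.0094 and 0.13, none past the test. Fat1, named after its values were seen, had the highest log2 fold change of the list and did not pass (0.29, edgeR adjusted p = 0.0635).

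Of the 22 genes of a YAP/TAZ target signature defined in cancer cells, which holds 5 of the 10 genes, 16 were tested, 5 were lower and none higher, beside 8.26% lower over all genes. Its median log2 fold change was -0.12, or -0.05 over the 11 tested genes that are not among the 10. Besides Ccn1 and Amotl2, Arhgef17, a guanine nucleotide exchange factor gene, fell by 0.33 on the log2 scale (edgeR adjusted p = 0.00907) and the growth-arrest gene Gadd45a fell by 0.31 (0.00412). The fifth gene lower was F3, named after its values were seen, which encodes tissue factor and was the most abundant of the list at 661 TPM (log2 fold change -0.16, edgeR adjusted p = 0.0390). Among the 11 tested genes that did not pass, some lay above 0, named after their values were seen. Dock5 (log2 fold change 0.15, edgeR adjusted p = 0.0504) and Nuak2 (0.20, adjusted p = 0.116) had all KO libraries above all WT libraries. Asap1 (0.17, adjusted p = 0.0591) and Myof (0.11, adjusted p = 0.141) overlapped between genotypes. The 6 genes not tested, Axl, Igfbp3, Fjx1, Foxf2, Ccdc80 and Tgfb2, had at most 20 counts in any library.

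Among 15 fetal-like and regenerative genes, all tested, 5 were lower and 3 higher in KO, 53.3% of the list beside 15.9% of all genes, and the median log2 fold change was -0.05. The 8 calls became 3 without KO replicate 8 and 4 without KO replicate 5 or WT replicate 13. Krt23, a type I keratin gene, fell from 9.80 ± 0.399 to 7.85 ± 0.703 CPM (SD, n = 4, with an edgeR log2 fold change of -0.32, SE 0.08, adjusted p = 0.0174), a call that ended without KO replicate 8 (-0.26, adjusted p = 0.0627). The other genes lower besides Ly6a, named after their values were seen, were Spp1, the osteopontin gene (-0.47, edgeR adjusted p = 0.0478), Il33, an alarmin cytokine gene (-0.16, adjusted p = 0.0467), and the keratin gene Krt7 (-0.14, adjusted p = 0.0356). In the other direction Ereg, an EGF receptor ligand gene, rose from 22.6 ± 3.32 to 30.1 ± 1.89 CPM (0.41 ± 0.09, edgeR adjusted p = 0.00575), and Il1rn, the interleukin-1 receptor antagonist gene, rose by 0.19 (edgeR adjusted p = 0.0110). Msln, the mesothelin gene, was the third higher and was named after its values were seen (log2 fold change 0.23, edgeR adjusted p = 0.0196). Of the genes besides Clu that did not pass, Anxa1, Gja1, Areg and S100a6 lay within 0.06 of 0 on the log2 scale. Anxa3 (-0.09, edgeR adjusted p = 0.143) and Basp1 (-0.22, adjusted p = 0.237) lay further below 0. The list therefore held changes in both directions. Of 11 epithelial identity genes 4 were higher in KO, Krt20, Car1, Vil1 and Cdx2 (log2 fold changes 0.76, 0.96, 0.25 and 0.33), and none was lower. That is 36.4% of the list called, beside 15.9% of all genes. The other 7, Epcam, Krt8, Krt18, Krt19, Cdh1, Cdx1 and Lgals4, did not pass. The part of the epithelial identity genes in these differences was not tested. Of other cell types, the summed level of the 11 mesenchymal and muscle markers was 6.18 to 7.57 CPM in KO and 4.21 to 6.94 CPM in WT, nearly all of it Pdgfrb (log2 fold change 0.23, edgeR adjusted p = 0.307), with Acta2 at 0.208 CPM. The 6 immune markers summed to 28.8 to 34.6 CPM in KO and 30.7 to 43.3 CPM in WT. That sum was almost entirely Cd68, a lysosomal membrane protein gene (log2 fold change -0.31, edgeR adjusted p = 0.0399), while the pan-leukocyte gene Ptprc had at most 9 counts.

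**Figure D4:**
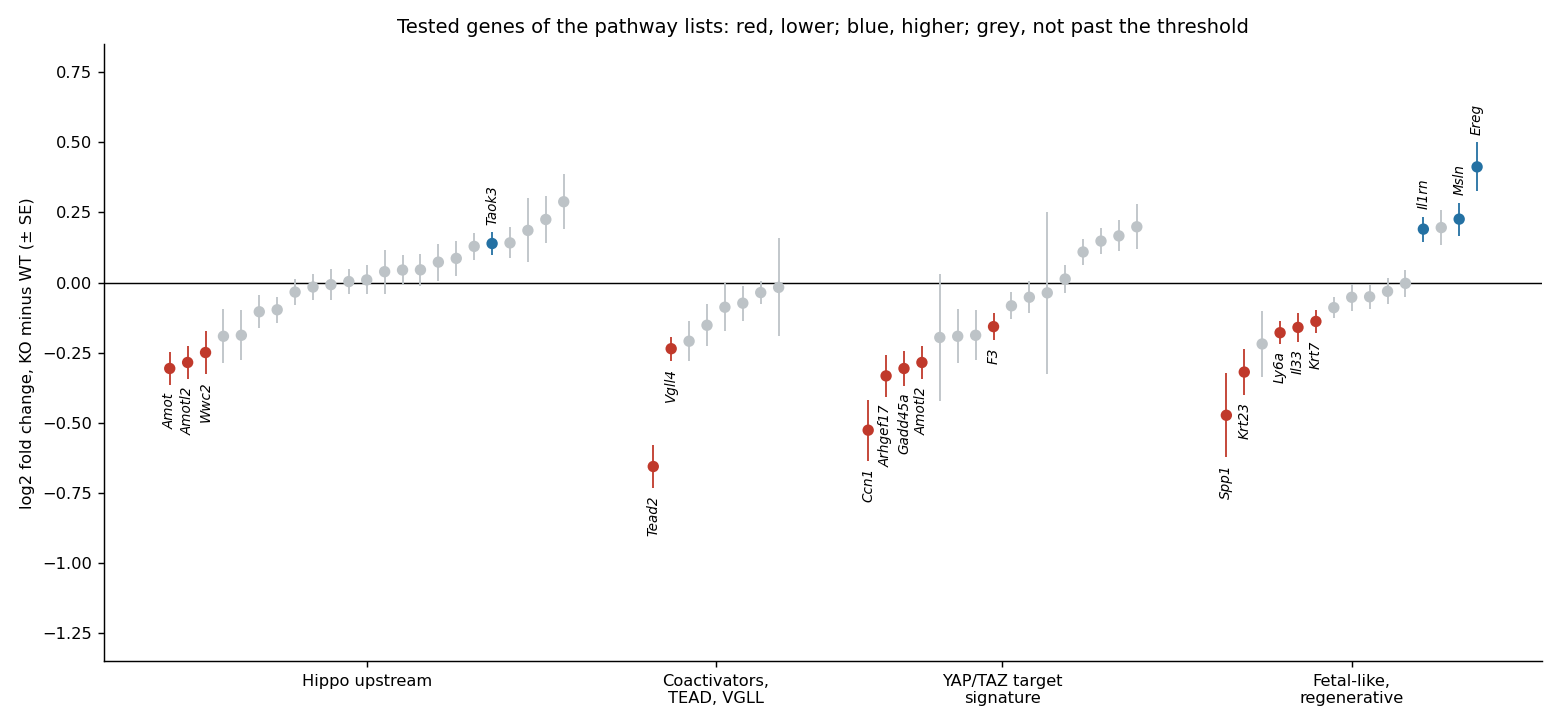
Log2 fold change ± SE of the tested genes in 4 lists (23, 8, 16 and 15 genes), each ordered by its value, with genes lower in KO in red, higher in blue and those not past the threshold in grey. Tead2 (-0.66) lies lowest and Ereg (0.41) highest.

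Across the 8 libraries some of the 10 genes varied together. Wwtr1 and Tead1 had a Pearson r of 0.76, and 0.82 after each genotype was centred on its own mean, so the likeness was not between genotypes only. WT replicates 13 and 15 were high and WT replicate 14 the lowest among WT for both. Wwtr1 and Lats2 had an r of 0.85 (0.75 centred), and Yap1 and Lats2 0.80 (0.72 centred). The highest r was that of Amotl2 and Ccn1 (0.88, 0.53 centred), then Ccn1 and Ly6a (0.86, 0.49 centred). After centring the highest was that of Ccn2 and Clu (0.84, r = 0.07) and the lowest that of Lats2 and Ly6a (-0.64, r = 0.30). Clu and Ly6a differed in sign between genotypes (r = -0.37), yet within genotypes their deviations ran together (0.78 centred). These coefficients describe 8 libraries that may share animals, and the pairs were picked from 45 after their values were seen.

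The genes most like each of the 10, by Pearson r of log2 CPM over 8 libraries among 9810 protein-coding candidates with a mean of at least 5 CPM, were searched by a set rule. For Ly6a the closest was Ly6e (r = 0.98), a member of the same gene family, which fell by 0.30 on the log2 scale (edgeR adjusted p = 0.00193), then Cavin3 (r = 0.98). For Amotl2 they were Ccdc77 (r = 0.99) and Pold3 (r = 0.99), a DNA polymerase delta subunit gene, both lower in KO (edgeR adjusted p = 0.00425 and 0.0280). For Ccn1 they were Emp2 and Dyrk3 (r = 0.98 and 0.96) and for Ccn2 Irf1 and Chek2 (both r of 0.97). Wwtr1 was closest to Ckap5 and Arhgap29 (r = 0.98 and 0.97), Tead1 to Rfc1 and Scyl2 (r = 0.99 and 0.97), Yap1 to Ankrd50 and Ripk2 (r = 0.96 and 0.93) and Lats2 to Mapkapk2 and B3gntl1 (r = 0.95 and 0.94). Clu was closest to Scamp3 and Prr15l (both r of 0.96), and Ankrd1 to Rnf24 and Mrpl39 (r = 0.97 and 0.94). None of the 10 genes was among another's nearest, but Ankrd1, with a mean below 5 CPM, was not among the candidates. The highest of 9810 coefficients over 8 libraries is large by its selection.

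Leaving out each library in turn kept Ccn1, Amotl2 and Ly6a past the threshold. Over the 8 omissions Ccn1 ran from -0.61 to -0.42 on the log2 scale (edgeR adjusted p 0.00450 to 0.0202), Amotl2 from -0.32 to -0.25 (0.00616 to 0.0282) and Ly6a from -0.20 to -0.14 (0.00711 to 0.0454). Yap1, Tead1, Lats2 and Ccn2 stayed below 0 and short of the threshold each time, whereas Ankrd1 changed sign.

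**Figure D5:**
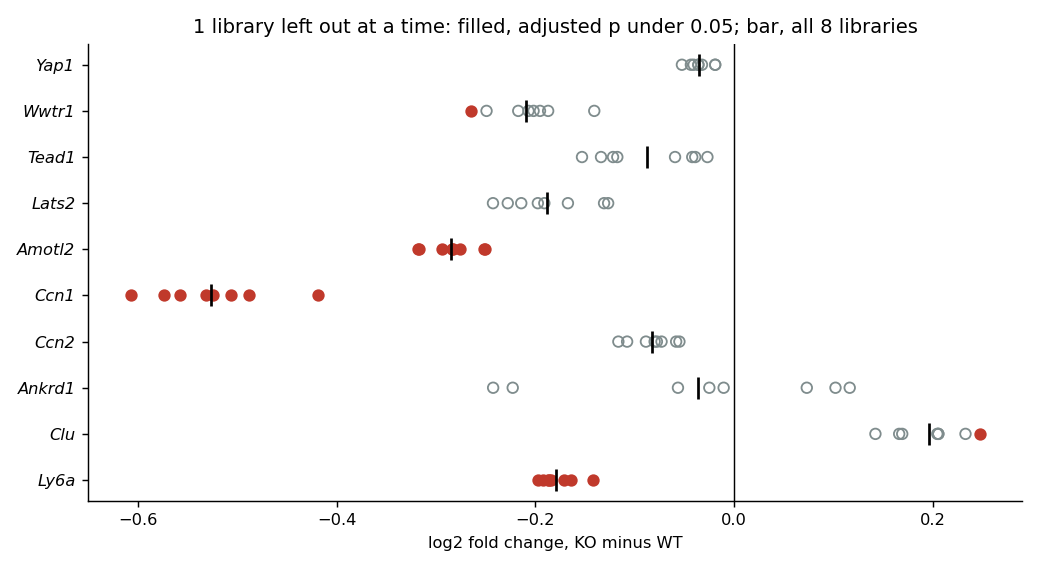
Log2 fold change of each gene with 1 of the 8 libraries left out (circles, filled where the edgeR adjusted p was under 0.05) and with all 8 (bar). All 8 circles are filled for Ccn1, Amotl2 and Ly6a, and Ankrd1 spans 0.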

How the data were processed

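Gene expression was read from the table the authors deposited, which gives whole-number counts, FPKM and TPM per gene and library. The authors used HTSeq, TopHat, TopHat2 and Bowtie2 on GRCm38, per the submitters' processing notes, which state neither versions nor roles. The sources used here do not state whether counting used strand. Per the labels' protocols, stranded mRNA libraries were made from 1 µg of RNA. The authors' FPKM values, scaled for length and depth, were not used, and the authors' TPM values served only for levels between genes. The lncRNAs that overlap Ccn2 and Ly6a had at most 12 counts. Where no read was counted the limit is 3 counts (0.0609 to 0.0807 CPM), for counting error only. Libraries were compared by chi-square, using genes that averaged 20 counts or more (4.94 to 10.7 per degree of freedom within KO, 11.1 to 24.9 within WT, 25.9 to 41.2 between), and none were identical.

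After filterByExpr and TMM scaling, KO was compared with WT by the edgeR quasi-likelihood test (edgeR 4.0.16, R 4.3.3). P-values were adjusted by Benjamini-Hochberg over all 14945 genes, with a threshold of 0.05. The step was tested on simulated data, where it called 40% of 50 changes of 1.25-fold and 77.1% of 48 changes of 1.5-fold. It also called 10 of 14587 unchanged genes. The simulation held far fewer changed genes than were called in these data, which makes its adjusted threshold stricter. The shares recovered may therefore be lower than in these data. Changes as small as many of those here can still be missed. The SE is the size of the log2 fold change divided by the square root of F, and intervals are 95%. Correlations used log2 CPM with a prior count of 2. Alternatives were other scalings, DESeq2 1.42.0, limma-voom 3.58.1, other filters, a threshold of 0.01 and leaving out each library. The members and lists were chosen with earlier results of these data known, and 1 gene of the fetal-like list is not reported here. Named by rule were the 10 genes and the 2 genes most like each of the 10. For each list the rule named at most 4 called genes, those of smallest adjusted p. Where no gene of a list was called, it named the 2 most abundant. All other list genes in the text, Amotl1, Tead3, Stk3 and Gja1 among them, were chosen outside this rule with their values known. Motifs and plots used Python 3.11.15, pandas 2.3.3 and matplotlib 3.10.9, with GENCODE M21 for exons.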

Additional observations from a re-analysis of the deposited data

Results flagged for a closer look

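Ereg in KO replicate 5, at 27.2 CPM, lay far from the other KO libraries, which ran from 30.8 to 31.2 CPM. The gap was 0.912 of the range of the 4 libraries, above Dixon's critical value for 4 samples. It was the 1 such case among the 40 groups of 4 examined for the 10 genes and the named pathway genes. Chance gives about 1 in 20 such groups, so 1 case in 40 is no more than chance gives.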

How the results depend on the processing

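Ccn1, Amotl2 and Ly6a kept their direction and an adjusted p under 0.05 in all 16 alternatives, with log2 fold changes from -0.61 to -0.42, -0.32 to -0.25 and -0.20 to -0.14. At an adjusted p under 0.01 all 3 also remained. Wwtr1 passed with the DESeq2 Wald test (-0.21, adjusted p = 0.0338) and ran from -0.27 to -0.14 over the omitted libraries. Clu passed with DESeq2 size factors (0.20), library totals alone (0.20), the DESeq2 Wald test (0.20) and at least 1 CPM in 4 libraries (0.20), and ran from 0.14 to 0.25 over the omitted libraries. The cause was not tested. Ankrd1 changed sign when KO replicate 6 (0.10), WT replicate 14 (0.12) or WT replicate 15 (0.07) was omitted, within a range of -0.24 to 0.12, and had no value at 1 CPM in 4 libraries because that filter removed it.

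The DESeq2 Wald test called 5 of the 10 genes. Over all genes it called 1382 lower and 1336 higher, more than the 1234 and 1140 of the edgeR test. Over the omitted libraries 3 to 5 of the 10 genes were called. At an adjusted p under 0.01, 597 genes were lower and 562 higher, and 2 upstream Hippo genes and 2 fetal-like genes were called. With no low-count filter 958 of 22983 genes were lower and 957 higher, and 2 upstream and 5 fetal-like genes were called. Over the omitted libraries 724 to 1404 genes were lower and 696 to 1386 higher, with 2 to 5 upstream Hippo genes and 3 to 8 fetal-like genes called. The fewest genes lower (724) and higher (696) came without KO replicate 8, and 808 were lower without WT replicate 13 and 757 higher without KO replicate 5. The fetal-like count was 3 without KO replicate 8 and 4 without KO replicate 5 or WT replicate 13. No paired analysis was possible because the genotypes share no replicate number. Depth limited Ankrd1 most, at 17 to 59 counts per library.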

Other observations

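The TEAD letters GGAATG were counted near the starts of genes lower in KO and of other genes, and the differences in share were not tested. Among tested genes with a RefSeq window, 14.6% of 960 genes lower in KO held a match, as did 16.2% of 858 genes higher and 14.3% of 9083 genes not called. The AP-1 letters TGANTCA were found for 7.71% of genes lower, 10.7% of genes higher and 6.28% of genes not called. These shares are descriptions of letters in short windows.

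The ratio of Yap1 to Wwtr1 in the authors' TPM was 2.97 to 3.31 in KO and 2.50 to 3.09 in WT, with overlap between the genotypes.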
